A study of Mus musculus with 4 samples.

Results

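The H3K9me3 islands described here are the long ones, of 25 kb or more, on the autosomes of 2 libraries. Trimethylation of lysine 9 on histone H3 (H3K9me3) was profiled by chromatin immunoprecipitation and sequencing, and an island is a run of enriched windows called as 1 region. Both came from CD8+ T cells of C57BL/6 mice, grown for 3 days in interleukin-2 with anti-CD3 and anti-CD28. The mice were wild type (WT) or knockout for the histone methyltransferase gene Suv39h1 (KO). Each genotype had 1 H3K9me3 library and 1 input library, and only the H3K9me3 islands are analysed here. The sources used here do not say how the gene was inactivated or how many mice gave cells. The members were chosen by length, a measured value of the same lists: an island was taken as long when it spanned at least 25 kb on chromosomes 1 to 19. This rule kept 207 of 12371 WT islands and 337 of 25424 KO islands, 544 of 37795 in all. No island on another chromosome reached that length.

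H3K9me3 marks constitutive heterochromatin, the compact chromatin of repeats and centromere flanks, and also silent gene clusters. SUV39H1 and SUV39H2 write it chiefly at satellite repeats and near centromeres, whereas SETDB1, brought to DNA by zinc finger proteins with TRIM28, writes it at retrotransposons and zinc finger gene clusters. Proteins of the HP1 family bind the mark and recruit more methyltransferase, so that the mark can spread along the fibre into broad domains.

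Long islands were rare and held little of the called sequence. They made up 1.67% of autosomal WT islands and 1.33% of KO islands, and 4.77% and 4.21% of island length (6.50 and 10.5 Mb). The median WT member had 28.5 kb and the median KO member 29 kb, the upper quartile lay at 33.5 and 33 kb, and the longest reached 153 and 80.5 kb. Only 15 WT and 32 KO islands were 40 kb or more. Length and number chose the members and are a description. At the boundary, 17 WT and 25 KO islands had exactly 25 kb, with a median of 34% and 0% of their length covered in the other genotype. Just outside, 23 WT and 41 KO islands had 24.5 kb, with a median of 32.7% and 0% covered. The KO to WT ratio of long islands was 1.63. Joining islands of a list over gaps of at most 3 kb gave 493 long WT islands and 1180 long KO islands, for a ratio of 2.39, so the count depends on where a broad domain is broken. There were no replicates, and intervals given below are exact (Clopper-Pearson) 95% binomial intervals that cover the counting of islands only.

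Some promoters lay wholly inside long islands, and those that did so in both genotypes were few. The promoter window ran from 250 bases before to 50 bases after the gene start in RefSeq (GRCm38.p6, the assembly of mm10). A window of this kind was found for 16457 of the 20558 autosomal protein-coding genes, and 40 windows lay in a WT and 49 in a KO long island. The 6 that lay in long islands of both genotypes are printed first, since they are the promoters that these domains held with and without Suv39h1. They are followed by the window richest in CG in WT alone, that in KO alone and 1 olfactory receptor window from a group of KO islands on chromosome 10, chosen after the values were seen. Each is read 5′ to 3′ on the gene's strand. Capitals mark CG dinucleotides and the motif TATAAA, or TTTATA, which is TATAAA on the other strand.
Chil3 (chr3:106167515-106167814, minus strand, both): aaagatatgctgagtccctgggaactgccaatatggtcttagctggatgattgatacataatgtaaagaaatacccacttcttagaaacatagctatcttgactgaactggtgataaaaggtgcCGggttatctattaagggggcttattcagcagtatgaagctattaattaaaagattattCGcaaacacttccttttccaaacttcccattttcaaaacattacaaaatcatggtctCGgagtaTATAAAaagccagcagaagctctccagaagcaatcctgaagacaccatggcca
Chil4 (chr3:106219430-106219729, minus strand, both): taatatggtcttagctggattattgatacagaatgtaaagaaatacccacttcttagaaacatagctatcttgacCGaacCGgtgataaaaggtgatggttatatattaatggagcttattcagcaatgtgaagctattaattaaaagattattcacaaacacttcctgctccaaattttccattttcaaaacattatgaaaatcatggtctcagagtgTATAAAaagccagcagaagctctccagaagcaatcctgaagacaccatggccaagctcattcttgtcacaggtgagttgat
Zfp981 (chr4:146514670-146514969, plus strand, both): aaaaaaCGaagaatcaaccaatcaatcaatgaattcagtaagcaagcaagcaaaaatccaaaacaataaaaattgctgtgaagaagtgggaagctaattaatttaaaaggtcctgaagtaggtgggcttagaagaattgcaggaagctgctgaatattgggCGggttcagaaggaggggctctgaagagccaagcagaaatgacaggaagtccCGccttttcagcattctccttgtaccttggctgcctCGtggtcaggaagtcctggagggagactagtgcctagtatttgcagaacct
Zfp993 (chr4:146512599-146512898, plus strand, both): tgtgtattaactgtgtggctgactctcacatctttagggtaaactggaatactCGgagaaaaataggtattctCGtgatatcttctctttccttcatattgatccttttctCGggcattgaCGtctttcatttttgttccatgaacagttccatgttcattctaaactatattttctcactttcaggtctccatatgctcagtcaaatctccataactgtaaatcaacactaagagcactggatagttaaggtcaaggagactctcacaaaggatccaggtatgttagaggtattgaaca
Mucl2 (chr15:103899263-103899562, minus strand, both): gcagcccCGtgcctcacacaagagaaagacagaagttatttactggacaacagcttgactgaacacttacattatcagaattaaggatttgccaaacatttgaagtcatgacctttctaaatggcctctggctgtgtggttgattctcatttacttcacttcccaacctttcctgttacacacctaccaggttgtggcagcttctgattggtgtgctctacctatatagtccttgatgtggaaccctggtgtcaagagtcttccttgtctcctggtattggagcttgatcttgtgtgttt
Smok2b (chr17:13230013-13230312, plus strand, both): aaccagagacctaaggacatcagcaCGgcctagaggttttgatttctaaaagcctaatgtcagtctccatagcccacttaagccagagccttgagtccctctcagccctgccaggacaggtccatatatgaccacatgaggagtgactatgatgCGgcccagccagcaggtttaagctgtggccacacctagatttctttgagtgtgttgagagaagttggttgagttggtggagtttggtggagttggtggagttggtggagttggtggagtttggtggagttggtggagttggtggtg
Syt14 (chr1:193035726-193036025, minus strand, WT alone): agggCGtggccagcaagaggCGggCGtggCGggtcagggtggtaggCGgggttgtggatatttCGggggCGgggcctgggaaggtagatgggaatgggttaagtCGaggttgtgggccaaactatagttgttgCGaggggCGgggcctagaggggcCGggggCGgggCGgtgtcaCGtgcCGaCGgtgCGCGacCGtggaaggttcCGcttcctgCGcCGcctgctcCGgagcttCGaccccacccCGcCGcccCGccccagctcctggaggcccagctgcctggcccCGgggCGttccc
Yes1 (chr5:32610921-32611220, plus strand, KO alone): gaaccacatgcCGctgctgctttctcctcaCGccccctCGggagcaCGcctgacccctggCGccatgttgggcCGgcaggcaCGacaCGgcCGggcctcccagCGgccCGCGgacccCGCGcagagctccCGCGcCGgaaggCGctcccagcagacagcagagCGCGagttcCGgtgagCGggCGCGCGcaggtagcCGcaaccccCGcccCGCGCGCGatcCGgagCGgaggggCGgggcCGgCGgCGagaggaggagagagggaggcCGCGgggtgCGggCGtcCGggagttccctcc
Olfr792 (chr10:129540289-129540588, plus strand, KO alone): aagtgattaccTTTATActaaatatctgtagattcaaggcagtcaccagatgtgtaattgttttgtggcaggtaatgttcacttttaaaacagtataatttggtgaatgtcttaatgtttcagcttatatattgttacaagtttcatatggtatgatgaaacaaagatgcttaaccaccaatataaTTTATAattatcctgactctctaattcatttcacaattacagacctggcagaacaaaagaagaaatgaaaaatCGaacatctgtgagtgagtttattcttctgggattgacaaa

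The 6 shared windows were poor in CG, with 1 to 4 CG each, against a median of 14 over all 16457 windows. Syt14, a synaptotagmin gene, had 29 and Yes1, a SRC-family kinase gene, 42. Chil3 and Chil4, neighbouring paralogs for secreted chitinase-like proteins, shared an exact run of 53 bases, and both held TATAAA.

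Windows inside long islands were poorer in CG than promoters in general. The median was 3 CG in the 40 WT windows and 1 in the 49 KO windows, with a GC content of 42.5% and 36.7% against 56.7% over all. TATAAA on either strand was found in 13 of the WT windows (32.5%) and 17 of the KO windows (34.7%), against 13.5% of all windows. GGGCGG on either strand, which overlaps 1 CG, was found in 9 (22.5%) and 5 (10.2%), against 47.3%. In windows inside islands under 25 kb the median was 2 CG in WT and 1 in KO. TATAAA was found there in 29.8% and 38.4%, and GGGCGG in 16.2% and 7.06%, so these features were shared by shorter islands. Many windows inside long islands belonged to olfactory receptor genes, more in KO than in WT. Several could lie in 1 island, so windows are not separate observations. The part of this family in these values was not tested.

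Windows with 10 or more CG numbered 9 of 40 in WT long islands and 3 of 49 in KO long islands, against 58.5% of all windows. In WT they belonged to Syt14, Sox30 (a transcription factor of male germ cells, 28 CG), Rasgrf2 (a Ras exchange factor, 28), Cep112 (a centrosomal protein, 24) and Hjurp (the chaperone of the centromeric histone CENP-A, 22). The others were the clone-named gene 4930447C04Rik (19), Stxbp5l (a tomosyn gene of secretion, 18), Nxph2 (a neurexophilin, 15) and Dnah14 (a dynein of cilia, 11). In KO they belonged to Yes1, Atf7ip2, which encodes a partner of SETDB1 in the germ line (17 CG), and Myo3a, a myosin of sensory cells (16). These genes were picked after their values were seen. In shorter islands the shares were 18.3% in WT and 7.06% in KO, so the same order held outside the long islands. The part of olfactory receptor windows in this order was not tested.

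Long islands were seldom covered in full by the other genotype. Of the 207 WT members, 160 (77.3%, 71.0 to 82.8) were overlapped by at least 1 bp of KO island, and of the 337 KO members 194 (57.6%, 52.1 to 62.9) by WT islands. The background over all autosomal islands was 48% and 24.9%, but a longer island meets an island of the other list more easily, so this gap cannot be told apart from length. Length that was covered came to 2.67 of 6.50 Mb in WT members (41.1%) and 2.89 of 10.5 Mb in KO members (27.6%). In shorter islands it was 31.6% and 17.1%. Over the whole span of the autosomes, KO islands covered 10.1% and WT islands 5.54%.

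Most members fell between no cover and full cover. No cover at all was found for 47 WT members (22.7%, 17.2 to 29.0) and 143 KO members (42.4%, 37.1 to 47.9), against 52% and 75.1% of all autosomal islands. At least 50% of the length was covered in 78 WT members (37.7%) and 78 KO members (23.1%), against 33.9% and 18.4% of all islands. At least 90% was covered in 14 WT members (6.76%) and 12 KO members (3.56%), against 12.4% and 8.66%, and 7 and 5 were covered from end to end. The other list met a covered member with 1 island in 88 of 160 WT cases and 146 of 194 KO cases. The longest island that met a covered member had a median of 11.5 kb for WT members and 12.5 kb for KO members, while all islands under 25 kb had a median of 8.5 kb in KO and 10 kb in WT. With the KO list reduced to the WT number of islands, keeping those with most reads, 42.0% of WT members had no KO cover.

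**Figure D1:**
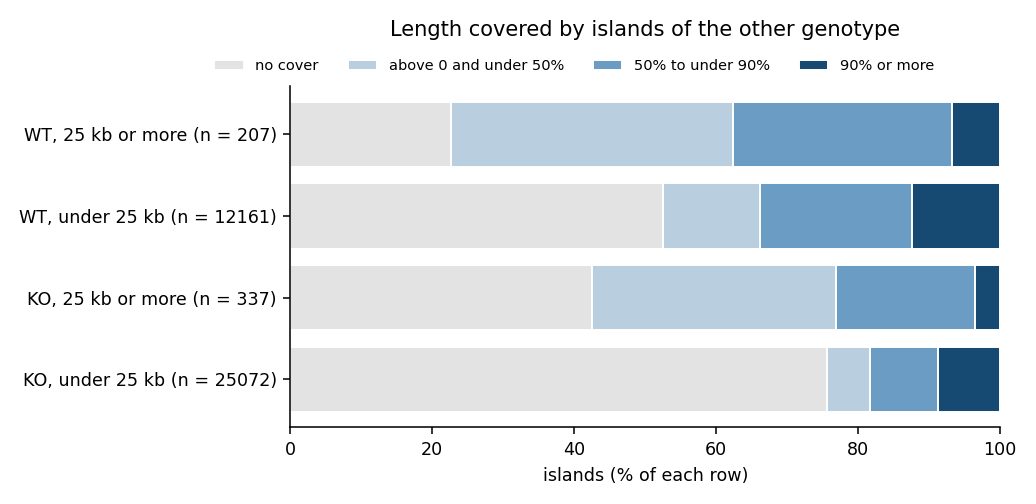
Share of islands (%, x axis) in 4 classes of cover by the other genotype, for long islands and for islands under 25 kb in each list. Long islands are less often without cover (22.7% in WT and 42.4% in KO) and less often covered over 90% or more of their length (6.76% and 3.56%) than shorter islands.

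Cover by the other genotype was higher in members of high read density. Density is the authors' count divided by island length, and the middle of the members, from the lower to the upper quartile, lay at 38.4 to 41.5 reads per kb in WT and 38.3 to 41 in KO. In shorter islands the quartiles were 38.3 and 43 for WT and 38.1 and 42.6 for KO. A level of 50 reads per kb, chosen after the data were seen, was reached by 13 WT members (6.28%) and 12 KO members (3.56%), against 4.6% and 3.18% of all autosomal islands. In these dense members the median cover was 95.9% in WT and 97.5% in KO, and 12 of 13 and 9 of 12 were covered by at least 50%. In the remaining 194 and 325 members the median was 34.0% and 17.5%, with 66 and 69 covered by at least 50%. Across members, Spearman's rho with cover was 0.24 in WT and 0.36 in KO for density, as a description over islands that share a library. Among KO members the share without cover was 51.7% below 27.5 kb and 25.8% from 35 kb, and among WT members 23.8% and 14.6%, where the lengths are those left by the choice of members. Of the dense members, 7 in WT and 8 in KO had 35 kb or more, and 1 in WT and 0 in KO had under 27.5 kb. Density and length thus overlapped, and their separate parts in cover were not tested. Exceptions among dense members were 1 WT island without cover, over Ugt1a1 and Hjurp, and 2 KO islands without cover. These were chr5:145652501-145685500, outside protein-coding genes, with 50.03 reads per kb, and chr8:61786501-61822000 in Palld, a gene for an actin-bundling protein, with 51.1. The KO island at chr4:121995001-122060000 over the pseudogene Gm12892 had 62.0 reads per kb and was covered over 20%.

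**Figure D2:**
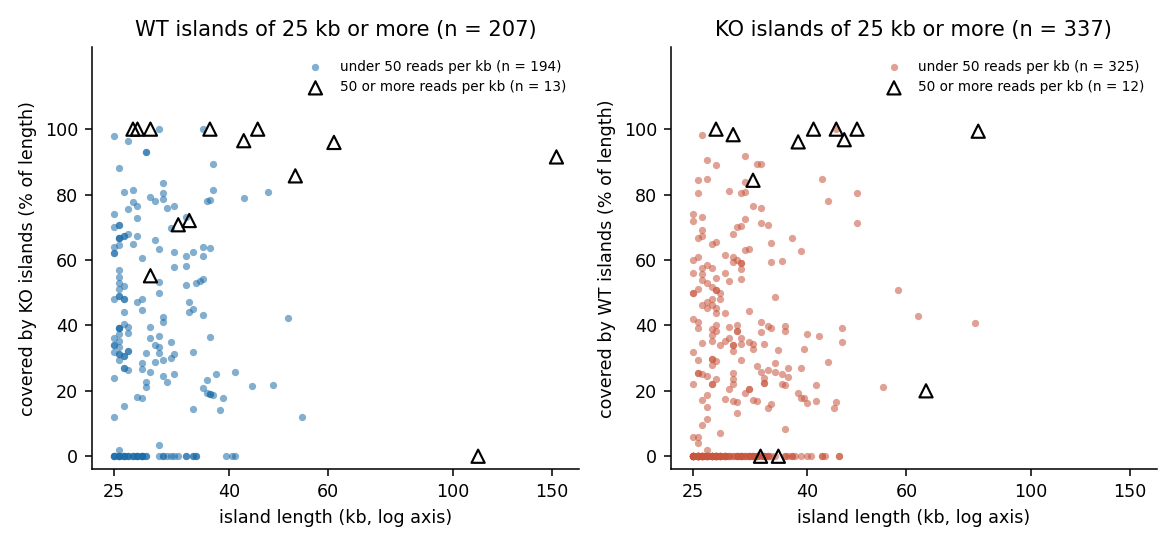
Percent of each long island covered by islands of the other genotype (y axis) against its length in kb (x axis, log scale), with 207 WT and 337 KO islands and triangles for those with 50 or more reads per kb. Of the triangles, 8 WT and 8 KO islands lie at 90% or above, while the WT island of 111 kb lies at 0.

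Cover by the other genotype stepped up at the edges of dense members. In dense WT members KO islands covered 73.8% of the first 2.5 kb inside the edge and 19.2% of the first 2.5 kb outside. In dense KO members WT islands covered 68.3% and 21.7%. In the other members the step was shallow. KO cover rose from 20.1% just outside to 30.6% just inside WT members and reached 39.6% at 5 to 7.5 kb from the edge, and WT cover went from 15.3% to 20.9% and 25.4% for KO members. At 22.5 to 25 kb outside, KO cover beside these WT members was 22.9% and WT cover beside the KO members 15.9%, both above the values over whole chromosomes. The neighbourhoods were also rich in islands of the same list. Their own list covered a median of 11.5% of the surrounding 1 Mb in WT and 25.8% in KO, against 7.73% and 18.2% around shorter islands.

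**Figure D3:**
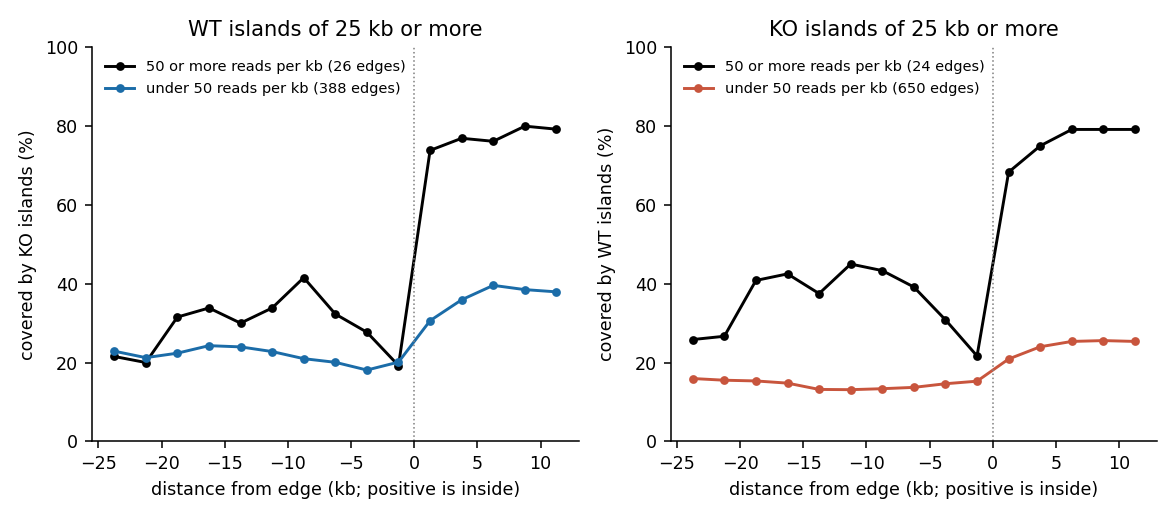
Cover by the other genotype (%, y axis) in 2.5 kb windows at each distance from the edges of long islands (kb, x axis, positive inside), for members with 50 or more and under 50 reads per kb. Dense members show a step at the edge, from 19.2% to 73.8% in WT and from 21.7% to 68.3% in KO, and the others a smaller rise, from 20.1% to 30.6% in WT and from 15.3% to 20.9% in KO.

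Only a small set of places carried a long island in both genotypes. Long islands of either list formed 523 separate loci, of which 187 were long in WT alone, 316 in KO alone and 20 in both. The 20 held 20 WT members (9.66%) and 21 KO members (6.23%). In 8 of them both genotypes reached 50 reads per kb. At chr3:106113001-106266500 the longest islands of both lists met over the chitinase-like genes. There the WT density was 73.5 and the KO density 68.9 reads per kb, for a KO to WT ratio of 0.94, the lowest of the 8.

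On chromosome 4, 3 shared loci lay over tandem gene clusters. A WT island at chr4:146512001-146541000 (81.3 reads per kb) and a KO island at chr4:146512001-146541500 (79.6) had the same start over the zinc finger genes Zfp981 and Zfp993. A second pair, chr4:147507001-147544000 in WT (76.1) and chr4:147505501-147544000 in KO (79.5), had the same end and lay over part of the zinc finger gene Zfp982. The third lay over Mup5, of the major urinary proteins that carry pheromones in urine, at chr4:61820001-61862500 in WT (57.7) and chr4:61820001-61861000 in KO (62.8).

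Smok2a and Smok2b, a pair of testis-specific kinase genes of the sperm motility kinase family, lay within 1 island with identical edges in both lists, chr17:13211501-13239000. Its density was 74.8 reads per kb for WT and 93.3 for KO, with a ratio of 1.25, the highest of the shared loci. Mucl2, a mucin-like gene, lay in a WT island of 27 kb (53.6 reads per kb) and a KO island of 32 kb (52.6), both ending at chr15:103900000. The remaining 2 dense loci held no protein-coding gene. They were chr16:3240001-3285000 in WT (81.8) against chr16:3238501-3285000 in KO (87.3), and chr13:12881001-12942500 in WT (64.1), which met 2 KO islands (66.3 together) at the lncRNA gene Gm40904. Many of these genes have near-identical copies nearby. How the authors placed reads that fit several sites is not given in the sources used here, and its part in these densities was not tested. Counts carry no scaling to depth, so a ratio near 1 does not show equal enrichment.

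The other 12 shared loci had ordinary density in at least 1 genotype. Kcnq1, a voltage-gated potassium channel gene that hosts the imprinted lncRNA Kcnq1ot1, carried 52.5 kb in WT (50.8 reads per kb) and 45 kb in KO (49.1), with the KO island wholly inside the WT island. Gucy1a2, a subunit of the nitric oxide receptor guanylate cyclase, carried 26.5 and 26 kb, and Abca16, of the ATP-binding cassette transporters, 25 and 29.9 kb. Zpld1, a zona pellucida-like gene, and the clone-named Gm281 were the further protein-coding genes of this group, beside Abca15. A stretch of immunoglobulin kappa variable segments at chr6:67756001-67795000 was long in both, the WT island with 36.5 kb and the KO island with 31 kb. The other 6 loci held no protein-coding gene or antigen receptor segment.

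By their medians, members without any cover were ordinary in density and length. These were 39.1 reads per kb and 28 kb in WT and 38.8 reads per kb and 27.5 kb in KO. The WT island over Ugt1a1 and Hjurp, chr1:88208501-88319500, was far from ordinary. It had 111 kb and 152 reads per kb, the highest density of all members of both lists. The nearest island of the other list lay at a median of 18 kb from the uncovered WT members and 42.5 kb from the uncovered KO members. This distance is not given here for shorter islands. After the Ugt1a1 island, the longest in WT lay in Myh15, a myosin heavy chain gene (41 kb, chr16:49087001-49128000), and Uggt2, an enzyme of glycoprotein folding (40.5 kb). Next came an island across 1 end of Zfyve9, which encodes the SMAD anchor SARA (39.5 kb, chr4:108742001-108781500). An island over the start of Dnah14 and chr1:138880001-138915000, outside protein-coding genes, tied at 35 kb. KO islands lay 7.5 kb from the Myh15 island, 14 kb from Uggt2, 2.5 kb from Zfyve9, 75.5 kb from Dnah14 and 172 kb from the last. In KO the longest were chr1:96280001-96325500, with no protein-coding gene within the surrounding 1 Mb, and an island in Ptprq, a receptor phosphatase of hair cells (both 45.5 kb). Skint4, of the family of Skint1, which selects gamma-delta T cells of the epidermis, followed with 43 kb, and chr6:107745001-107787500 and chr4:64559501-64602000 with 42.5 kb each. WT islands lay 4, 16.5, 6, 98 and 34.5 kb from these 5.

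Some members lay far from any island of the other list. Of 207 WT and 337 KO long islands, 4 and 8 had none within 250 kb. The same share for shorter islands is not given here, so these counts have no background. The farthest in WT was chr6:99749501-99774500, 1003 kb from the nearest KO island, followed by an island in Septin14, a cytoskeletal GTPase gene (683.5 kb). In KO the farthest was chr4:153700001-153727000 at 929 kb, followed by an island in Grm7, a metabotropic glutamate receptor gene, at 695.5 kb.

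The 6 longest islands of each list ranged widely in cover, from 0% to 95.9% in WT and from 20% to 99.4% in KO. In WT, after the chitinase-like and Ugt1a1 islands and the one on chromosome 13, an island of 54 kb over Cyp3a13, a steroid and drug oxidase gene, was covered over 12.04% (chr5:137881001-137935000). The Kcnq1 island of 52.5 kb was covered over 85.7%, and 1 of 51 kb in Slc4a10, a bicarbonate transporter gene of neurons, over 42.2%. In KO the island of 80.5 kb over Chil4 was covered over 99.4%. One of 79.5 kb inside Lrrc7, a scaffold gene of synapses, was covered over 40.9% by 3 WT islands. The Gm12892 island of 65 kb was covered over 20%, and chr1:47398001-47461000 (63 kb) and chr4:16452001-16510000 (58 kb), both outside protein-coding genes, over 42.9% and 50.9%. An island of 54.5 kb in Epha6, an ephrin receptor gene, was covered over 21.1%.

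Long islands were unevenly spread over the autosomes. KO had more than WT on 17 of 19 chromosomes, the numbers were equal at 8 on chromosome 17, and WT had more on chromosome 14, with 9 against 7. Chromosome 16 had most for its span in both lists, with 17 in WT and 27 in KO, or 17.3 and 27.5 per 100 Mb. Chromosome 2 had the largest numbers, 24 and 39. The fewest per 100 Mb in WT were on chromosome 8, with 1 island (0.773), and in KO on chromosome 14 (5.61). On chromosome 8 the KO list had 15 long islands, 9 of them without WT cover. The island in Nrg1, a growth factor gene, had none, that in Sgcz, a sarcoglycan gene, was covered over 57.4%, and of 2 in Galntl6, a glycosyltransferase-like gene, 1 had none and the other 40%. The single WT island there, chr8:79829001-79854000, had no KO cover. At a threshold of 20 kb the chromosome 8 numbers were 15 and 49, and at 30 kb 0 and 5. The order on chromosome 14 turned at 20 kb, with 20 in WT and 23 in KO, and at 30 kb it was 5 and 3. All islands of any length were 2.70 times as many in KO on chromosome 8 and 2.43 times on chromosome 14, so chromosome 14 had more KO islands but fewer long ones.

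**Figure D4:**
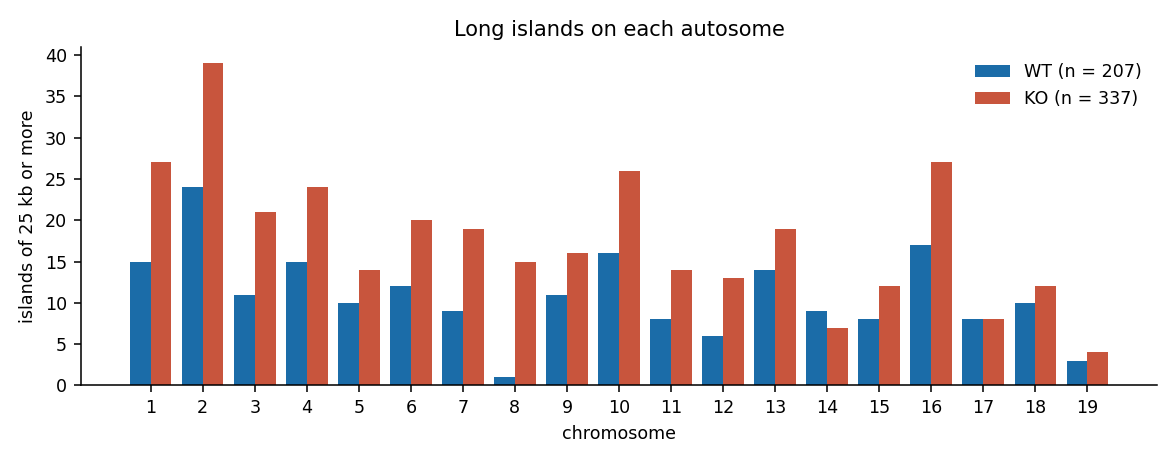
Number of islands of 25 kb or more (y axis) on each autosome (x axis) in WT and KO, as bars from 0. KO bars are higher on 17 of 19 chromosomes, chromosome 8 has 1 WT and 15 KO islands, and chromosome 14 has 9 and 7.

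Long islands were no more frequent than shorter ones at the starts of the chromosomes and had a higher share at their ends. In the first 10 Mb lay 4.83% of WT and 4.75% of KO long islands, against 5.39% and 4.89% of shorter ones. In the last 5 Mb lay 5.31% and 7.12%, against 3.52% and 3.21%, from 11 WT and 24 KO members.

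Long islands came in groups. Another long island of the same list lay within 1 Mb of 79 WT members (38.2%, 31.5 to 45.2) and 191 KO members (56.7%, 51.2 to 62.0). Of the shorter islands, 23.1% in WT and 32.6% in KO had a long island that near. The median distance to the next long island was 2097 kb in WT and 765.5 kb in KO, against 3725 and 2284.5 kb from shorter islands. Linked at 1 Mb, the members formed 36 groups in WT, 29 of them pairs and none above 3, and 72 groups in KO, 47 of them pairs and the largest with 8. More long islands on a chromosome bring them nearer to each other, so the gap between genotypes cannot be told apart from their number. Long islands of the other list were also near: 96 WT members (46.4%) had a KO long island within 1 Mb and 118 KO members (35.01%) a WT one, against 30.1% and 18.3% of shorter islands.

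**Figure D5:**
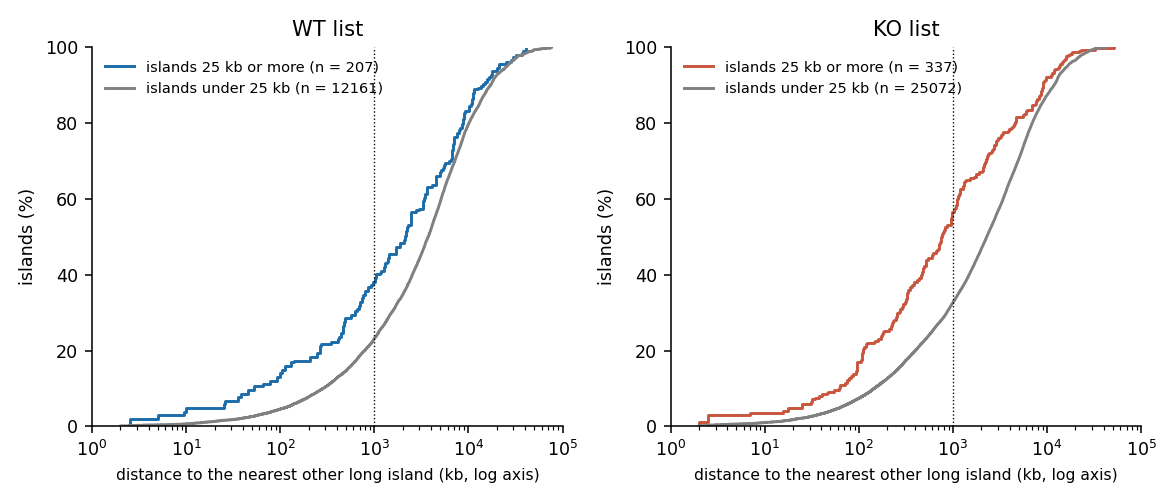
Cumulative share of islands (%, y axis) by distance to the nearest other long island of the same list (kb, x axis, log scale), for long islands and for islands under 25 kb. At 1000 kb (dotted line) the long islands stand at 38.2% in WT and 56.7% in KO, and the shorter ones at 23.1% and 32.6%.

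The largest KO group, 8 islands over chr2:139184001-141272500, centred on Macrod2, an enzyme gene that removes ADP-ribose from proteins. Macrod2 spans 1998 kb and held 6 of them, the most long islands in any gene in either list. The other 2 lay outside genes and in Sptlc3, a sphingolipid synthesis gene. Their lengths ran from 25 to 39 kb and their densities from 35.9 to 41.6 reads per kb. WT islands covered 62.8% and 25.8% of the first pair of members inside Macrod2 and none of the other 6. Over the whole stretch KO islands covered 33.3% and WT islands 9.4%, with no long WT island.

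The second KO group, 7 islands over chr10:129106001-130039000, lay in an olfactory receptor cluster. Each of the 7 held 2 or 3 receptor genes, from Olfr769 and Olfr770 in the first to Olfr820 and Olfr821 in the last. WT cover of the members ran from 0% (2 islands) to 70%. A WT group of 3 islands at chr10:129781001-130265000 lay in the same cluster and overlapped the end of the KO group. Its members held Olfr810 and Olfr811 in 1 island and Olfr825 and Olfr826 in another. KO cover of the 3 ran from 30.2% to 69.8%. No receptor gene lay under long islands of both lists. Next came 4 KO groups of 5 islands, with 15.5% to 60.8% of their length covered. The one with most island length lay over chr16:53611001-55379000, where Zpld1 is the only protein-coding gene, with 32.2% covered.

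The WT groups of 3 with most length lay elsewhere. One at chr2:22628001-23665500 held Gad2, an enzyme gene of GABA synthesis, in its first island and Nxph2 in its second, and 63.5% of its island length was covered in KO. One at chr1:181574501-182006500 held 2 islands in Dnah14 and 1 in Enah, a regulator of actin filaments, with 14.2% covered. One at chr2:62098501-62725500 held 2 islands in Slc4a10 and 1 over Gca and Kcnh7, a calcium-binding protein gene and a potassium channel gene, with 52.0% covered.

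WT members touched genes more often than KO members. A protein-coding gene was touched by 113 WT members (54.6%, 47.5 to 61.5) and 131 KO members (38.9%, 33.6 to 44.3), against 36.5% and 29.7% of all autosomal islands, which are shorter. Measured by length, 43.9% of WT and 28.8% of KO member length lay in protein-coding genes, against 31.5% and 26.7% in shorter islands and 39.95% of the chromosomes. An island across the end of a gene was the case for 36 WT members (17.4%) and 27 KO members (8.01%), wholly inside a gene for 59 (28.5%) and 74 (22.0%), and around a whole gene for 18 (8.70%) and 30 (8.90%). No annotated gene of any kind was touched by 61 WT and 162 KO members. LncRNA genes were touched by 27 WT members (13.0%) and 44 KO members (13.1%). No protein-coding gene lay in the 1 Mb around 3 WT members (1.45%, 0.30 to 4.18) and 52 KO members (15.4%, 11.7 to 19.7), against 8.72% and 16.0% of shorter islands. Members that touched a protein-coding gene were covered by the other genotype over 41.4% of their length in WT and 30.04% in KO, and the others over 40.5% and 26.02%.

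Genes under long islands were long genes, and few lay under long islands of both lists. A long island touched 141 WT and 138 KO genes, 0.686% and 0.671% of 20558, and 19 genes (0.0924%) were touched in both. Genes under a long island of 1 list could carry shorter islands of the other. Ralyl, with a long island in WT alone, had 80 kb under WT and 205.5 kb under KO islands of any length. Itga1, likewise with a long island in WT alone, had 48.5 kb and 0 kb. The median touched gene spanned 82.8 kb for WT and 96.0 kb for KO, against 17.6 kb over all genes, and a longer gene meets an island more easily. In some of the 19, the long islands of the genotypes lay in different parts of the gene, though shorter islands could cover them. Foxp2, a forkhead factor of brain and lung, carried 2 long islands in each list and 62 kb in each. The KO islands lay at chr6:15027501-15054500 and chr6:15229001-15264000, and the WT islands at chr6:15270501-15295500 and chr6:15321501-15358500, with no overlap among them. Kcnh7 carried 32 kb in WT at chr2:62693501-62725500 and 34 kb in KO at chr2:63006001-63040000. Rims2, which acts in neurotransmitter release, carried 1 WT and 2 KO long islands (27.5 and 63 kb), and Epha6 30.5 kb in WT and 54.5 kb in KO, likewise without overlap. Genes with several long islands in WT alone were Dok6, an adaptor of receptor kinases (3), and Dnah14, Slc4a10 and Cep112 (2 each). KO islands of any length lay over 126 kb of Dok6, 11.5 kb of Dnah14, 119.5 kb of Slc4a10 and 78.5 kb of Cep112. In KO alone Cnbd1, named for a cyclic nucleotide-binding domain, had 3. Dlg2, a synaptic scaffold gene, Sntg1, Agbl4, Nxph1, Galntl6 and Rit2 had 2 each. WT islands of any length lay over all of these KO genes, from 6 kb of Cnbd1 to 252 kb of Dlg2.

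Whole genes inside a long island were short, with olfactory receptor genes as the largest family. They numbered 30 in WT and 46 in KO, 0.146% and 0.224% of genes, and 6 were whole in both: Chil3, Chil4, Mup5, Mucl2, Smok2a and Smok2b. Symbols beginning with Olfr made up 15 of the 30 and 33 of the 46. The olfactory receptor list used below holds 1099 of the 20558 genes. Its median gene spans 0.951 kb against 17.6 kb over all genes, and a shorter gene fits inside an island more easily. Several could lie in 1 island, so they are not separate observations. The longest others in WT were Mroh2a (35.3 kb), Cyp3a13 (32.7 kb), Hjurp (18.8 kb), Chia1, an acidic chitinase gene (18.7 kb), Rsph4a, of the radial spokes of cilia (10.9 kb), and Ugt1a1, the bilirubin-conjugating enzyme (8.04 kb). KO islands of any length lay over 6.5 kb of Cyp3a13, 11.1 kb of Chia1 and 10.02 kb of Rsph4a. They did not touch Mroh2a, Hjurp or Ugt1a1. Pip, a secreted protein of exocrine glands (4.52 kb), and Klf14, an imprinted transcription factor (2.97 kb), were whole in WT with no KO island of any length. In KO, leaving out clone-named genes such as Gm10461 (7.13 kb), the longest others were Vmn2r110, a pheromone receptor (22.4 kb), Mrgprb1, of the Mas-related receptors (12.2 kb), and Cabs1, a sperm protein (2.09 kb). Of these 3, WT islands of any length touched Vmn2r110 over 2.76 kb and Cabs1 over its whole length, and did not touch Mrgprb1.

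Gene families differed in how many members lay under long islands. The background is the share of all genes touched, 0.686% in WT and 0.671% in KO. Of 415 zinc finger genes, 8 were touched in WT and 5 in KO (1.93% and 1.20%), 3 of them in both. After Zfp981, Zfp993 and Zfp982, the next by cover was Zfp81, with 25.7 kb in WT and none from KO long islands, though 14 kb of it lay in shorter KO islands. Of 1099 olfactory receptor genes, 14 were touched in WT by 7 islands and 32 in KO by 18 islands (1.27% and 2.91%), and none in both. This list leaves out Olfr1532-ps1 and Olfr911-ps1, which the count of whole genes above includes. Islands of any length touched 20.7% of the list in WT and 36.2% in KO, against 13.2% and 13% of all genes. Olfr904, Olfr910 and Olfr787 had the longest cover in KO and Olfr619 in WT. Receptor genes stand side by side, so genes of 1 island are not separate observations. Of 349 vomeronasal receptor genes, 1 was touched in WT (0.287%) and 5 in KO (1.43%). The WT gene was Vmn2r80, over 19.2 kb, and islands of any length lay over 24.7 kb of it in WT and 31 kb in KO. Among the KO genes were Vmn2r105 over 26.3 kb and Vmn2r66 over 15.9 kb. WT islands of any length lay over 7 kb of Vmn2r105 and 6.86 kb of Vmn2r66. Of the whole list, islands of any length touched 21.2% in WT and 33.0% in KO. Single islands accounted for the shares of 2 other families in WT. The Ugt1a1 island touched 9 of 85 conjugating enzyme and carboxylesterase genes, since the Ugt1a genes share their last exons. On chromosome 18, 1 island touched 8 of 55 clustered protocadherins, whose annotated spans overlap. It ended at chr18:37713500, short of the ends of these genes near chr18:37841870.

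Within each neuronal family the touched genes lay under separate long islands. Of 45 glutamate, GABA and glycine receptor genes, 3 were touched in each list (6.67%) and none in both. Islands of any length touched 23 of them in WT (51.1%) and 27 in KO (60%), against 13.2% and 13% of all genes. Grm8 (30 kb) and Gria4 (27.1 kb) were among the WT genes, and Grm7 (30 kb) among the KO genes. Islands of any length lay over 173 kb of Grm8 in WT and 178.5 kb in KO, 90.1 and 133.6 kb of Gria4, and 0 and 147.5 kb of Grm7. Of 92 potassium channel genes, 3 were touched in WT (3.26%) and 4 in KO (4.35%). Kcnq1 and Kcnh7 were touched in both, and Kcnc2 (39 kb) and Kcnj3 (30 kb) in KO. Of Kcnc2, 62 kb lay under WT and 109.5 kb under KO islands of any length, and of Kcnj3 11 and 75.3 kb. Such islands touched 21.7% of the channel genes in WT and 25% in KO. Of 42 synaptic adhesion genes none was touched in WT and 4 in KO (9.52%), among them Lrrc7 (79.5 kb), Negr1 (28 kb) and Flrt3 (1.30 kb). WT islands under 25 kb lay over 23 of these 42 genes (54.8%), against 13.2% of all genes touched by a WT island of any length. The median gene spans 773 kb in this list, 137 kb in the receptor list and 34.5 kb in the channel list. Over all genes it is 17.6 kb, and a longer gene meets an island more easily. Further genes touched in KO were Slc22a22 (35.7 kb) and Slco6d1 (26.5 kb), 2 of 39 transporters of organic ions (5.13%). Skint4 (28.1 kb) and Skint6 (7.47 kb) were 2 of 11 Skint genes (18.2%). Ugt2b36 (20.1 kb) was 1 of 85 conjugating enzyme and carboxylesterase genes (1.18%). The P450 list had 1 of 93 in each genotype (1.08%), Cyp2b9 (18.7 kb) in KO and Cyp3a13 in WT. The background was 0.686% of all genes in WT and 0.671% in KO. WT islands of any length lay over 51.5 kb of Slc22a22 and 19.9 kb of Slco6d1. They covered 10.5 kb of Skint4, 39.5 kb of Skint6 and 5.6 kb of Ugt2b36, and did not touch Cyp2b9.

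Some lists had no member under a long island, as may be read against the low share of all genes touched, 0.686% in WT and 0.671% in KO. In the 4 lists of stem-like and memory, effector, inhibitory and identity genes of T cells, 0 of 67 were touched in either genotype, which is near that background. Islands of any length touched 8 of the 67 in WT and 3 in KO, against 13.2% and 13% of all genes. Nor was any of 19 H3K9 methylation genes, 19 genes of other blood cells or 18 housekeeping genes touched. Of the 29 lists, 16 had no member under a long island in either list, among them the serpins, keratins, defensins, killer lectin-like receptors and MHC genes.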

How the data were processed

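H3K9me3 ChIP-seq was done on 2 libraries, 1 per genotype, with 1 input library each, which are not analysed here. The authors deposited 1 island list per library, with a chromosome, a start, an end and a whole-number column taken here as the read count of the island. Bowtie2, SICER 1.1 and the build mm10 are named, per the submitters' processing notes. For the window, gap, false discovery rate, duplicates, use of the input and depth, settings were not given in the sources used here. Islands lie on a 500 bp grid with gaps of at least 2000 bp, so the gap setting bears on length.

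Length was taken as end minus start plus 1, and islands of 25 kb or more on the 19 autosomes were kept. Cover is the share of bases under any island of the other list, and overlap needs 1 bp. Genes and promoters came from RefSeq GRCm38.p6, leaving out 348 genes off the chromosome sequences. The scripts used Python 3.11.15, numpy 2.4.6, pandas 2.3.3 and scipy 1.17.1, and were tested on simulated islands. Counts were not scaled to depth. With 1 library per genotype there is no test between genotypes. The islands named are the 6 longest, the 5 longest without cover, the 5 longest with at least 90% cover and the 3 groups with most members in each list, with the chromosomes of most and fewest. The genes named are those under these islands, those wholly inside a long island and up to 4 from each of 29 lists by covered length, and others are said to have been chosen after their values were seen or fall among the dense, shared or repeated loci, which were picked in the same way. The members and lists were chosen with earlier results of these data known. Alternatives were the threshold, joining of near islands, density filters, a reduced KO list, and other definitions of cover, nearness and gene contact.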

Additional observations from a re-analysis of the deposited data

How the results depend on the processing

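No paired analysis was possible because there is only 1 library for either genotype. Of 98 alternative values over 15 results, 44 stayed within the range set for their result and 54 did not. At a threshold of 20 kb there were 591 WT and 976 KO islands (14.9 and 24.4 Mb), 56.7% and 79.1% lay within 1 Mb of another, 47.2% of WT members touched a protein-coding gene, 51.9% of KO members had no cover, and 133 genes lay wholly inside a member of either list. At 30 kb the numbers were 89 and 151 (3.36 and 5.49 Mb), 29.2% and 35.1% lay within 1 Mb, 34.4% of KO members had no cover and 30 genes lay wholly inside. Joining over gaps of at most 3 kb gave 493 and 1180 islands (16.3 and 40.3 Mb), of which 60.04% and 81.6% lay within 1 Mb, with 181 whole genes. The joined KO islands were covered over 22.8% of their length, and 15.8% of them over at least 50%. Keeping islands above the median density left 88 and 124 (3.00 and 4.08 Mb), with 29.5% and 41.9% within 1 Mb and 38 whole genes. Of these WT islands 31.8% had no cover, and of the KO islands 45.97% touched a gene.

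With the KO list reduced to the WT number, WT members were covered over 32.8% of their length, 29.95% of them over at least 50%, and 42.0% had no cover. Counting only long islands of the other list, 10.5% of WT and 6.49% of KO length was covered, 9.18% and 5.64% of members over at least 50%, and 90.3% and 93.8% had none. The share of members covered by at least 1 bp was 77.3% in WT and 57.6% in KO, by at least 25% it was 66.2% and 43.9%, and by at least 90% it was 6.76% and 3.56%. Within 500 kb of another lay 28.5% and 42.4%, and within 2 Mb 48.3% and 67.1%. The cause of these changes was not tested, except that a threshold or a filter sets how many islands enter.

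Limits are the lack of replicates, the unknown depth and caller settings, and the input, which was not used here. Island counts give no measure of enrichment over input, and a longer list meets the other more often.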
